A study of Mus musculus with 6 samples.

Results

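Src family kinases are 8 listed members, Src, Fyn, Yes1, Lck, Lyn, Fgr, Blk and Frk, and the list also holds Csk, the kinase that restrains them. These 9 genes were taken by name as a family, with no threshold on measured values although earlier results of these data were known, and 8 of them have a row among the 25701 genes of the table. Blk, a kinase of B cells, had no row and was not analysed here. PolyA RNA was sequenced from CP cells, cardiac progenitors derived in culture from the 46C line of mouse ESCs, which carries a fluorescent reporter at Sox1. The groups were 3 libraries labelled Zhx1-KO and 3 libraries of 46C-Ctrl, the unedited 46C cells taken through the same differentiation. To make the knockout, the study cut both ends of Zhx1, a zinc finger and homeobox gene, with CRISPR/Cas9 and picked lines by PCR. It also reported the knockout in ESCs from measurements of Zhx1 mRNA and protein. How many lines stand behind the Zhx1-KO libraries, and whether the 3 libraries of a group came from separate cultures, is not stated in the sources at hand. The study speaks of independent experiments for its statistical data in general, without naming the RNA-seq libraries. The p-values below therefore speak only of the spread among these libraries, and that spread may be technical.

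Src family kinases are cytoplasmic tyrosine kinases held at membranes by lipid anchors, mostly myristate added to the amino terminus. They relay signals from integrins, receptor tyrosine kinases and immune receptors to adhesion, migration and growth. Csk phosphorylates a tyrosine in their carboxy-terminal tail, the tail then folds back onto the SH2 domain, and the kinase is held inactive until a phosphatase removes the phosphate. Src, Fyn and Yes1 are found in most cells, while Lck, Lyn, Fgr and Blk are best known from blood cells and Frk from epithelia.

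The tail that Csk acts on can be read from the coding sequence, and it is shown because it separates the members into kinase and regulator. Each line gives the last 36 coding bases before the stop codon, from GENCODE M21 transcripts on GRCm38, with the last tyrosine codon in capitals.
Src, chr2:157469923-157469958, plus strand: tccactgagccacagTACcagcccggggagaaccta
Fyn, chr10:39563934-39563969, plus strand: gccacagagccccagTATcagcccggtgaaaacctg
Yes1, chr5:32684721-32684756, plus strand: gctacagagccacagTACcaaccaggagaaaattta
Lck, chr4:129548801-129548836, minus strand: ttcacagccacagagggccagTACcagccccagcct
Frk, chr10:34608533-34608568, plus strand: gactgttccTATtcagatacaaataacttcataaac
Csk, chr9:57627324-57627359, minus strand: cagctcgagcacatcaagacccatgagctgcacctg
In Src, Fyn, Yes1 and Fgr the last tyrosine codon is followed by 6 codons. In Lck, Lyn and Blk it is followed by 4 codons, and in Frk by 8. Csk has no tyrosine codon in this stretch, since its last one is codon 416 of 450. Over the whole coding sequence Src shares 70.3% of 1576 aligned bases with Fyn and 70.7% of 1572 with Yes1. None of the 50-base words in the transcripts of Src, Fyn, Lck, Fgr, Frk or Csk occurs in another annotated gene. The exceptions are Yes1, with 0.490% of its words shared, and Lyn, with 13.4% shared with the predicted gene Gm11787.

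Values are normalized counts, the number of reads per gene divided by 1 factor per library, and the libraries held 13769967 to 15940874 reads in genes, counted as multiples of each library's smallest step. Of the genes in the table, 15372 averaged at least 10 across all 6 libraries and were tested with limma, and a gene was called at a Benjamini-Hochberg adjusted p under 0.05. That test called 52.0% of all genes tested, 25.6% as higher and 26.4% as lower in the libraries labelled Zhx1-KO, so a call by itself was common. Libraries of the groups did not overlap for 60.8% of genes tested. Zhx1 itself had 225, 325 and 308 in the libraries labelled Zhx1-KO and 460, 181 and 457 in 46C-Ctrl. Its log2 fold change was -0.25 (limma, adjusted p = 0.579), and the exact permutation p, two-sided, was 0.4, with 0.1 as the smallest that 3 libraries against 3 can give. Leaving out 46C-Ctrl replicate 2 gave a log2 fold change of -0.70 (limma, adjusted p = 0.0113), so transcript level in these libraries did not settle the labels. This control library stood apart from replicates 1 and 3, at a chi-square per gene of 17.3 and 18.7 against 5.88 between those other libraries.

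The libraries also differed in cell type markers, and in bulk RNA fewer cells of a type cannot be told apart from less RNA per cell. Of 6 CP genes tested, 5 were lower and 0 higher, and their summed level was 1081 to 1159 in the libraries labelled Zhx1-KO against 7770 to 8527 in 46C-Ctrl. Hand1 made up most of that sum in 46C-Ctrl, with a mean of 5774 there and 198 in the libraries labelled Zhx1-KO. Endothelial markers were higher for 9 and lower for 1 of 11, with sums of 5270 to 5690 against 1428 to 1557. Of 8 epithelial and endoderm markers 7 were lower, with sums of 20566 to 22089 against 47558 to 53642 in 46C-Ctrl. Neural markers were higher for 6 and lower for 1 of 8, and pluripotency markers higher for 1 and lower for 2 of 4. These counts stand beside 52.0% called of all genes tested. Some called markers reached the filter only through their higher group, such as Tbx5 with means of 1.93 against 62.2 in 46C-Ctrl. The part of these shifts in the kinase values below was not tested.

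Of the 8 members with a row, 7 passed the filter on low values, 1 was lower, 1 was higher and the other 5 were not called. The calls were 2 of 7, or 28.6%, against 52.0% of all genes. Src fell and Fyn rose, and the Src family kinase with the most transcript per kilobase was Fyn in the libraries labelled Zhx1-KO and Src in 46C-Ctrl. The median log2 fold change over the 7 members was -0.07, beside 0.01 over all genes tested.

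**Figure D1:**
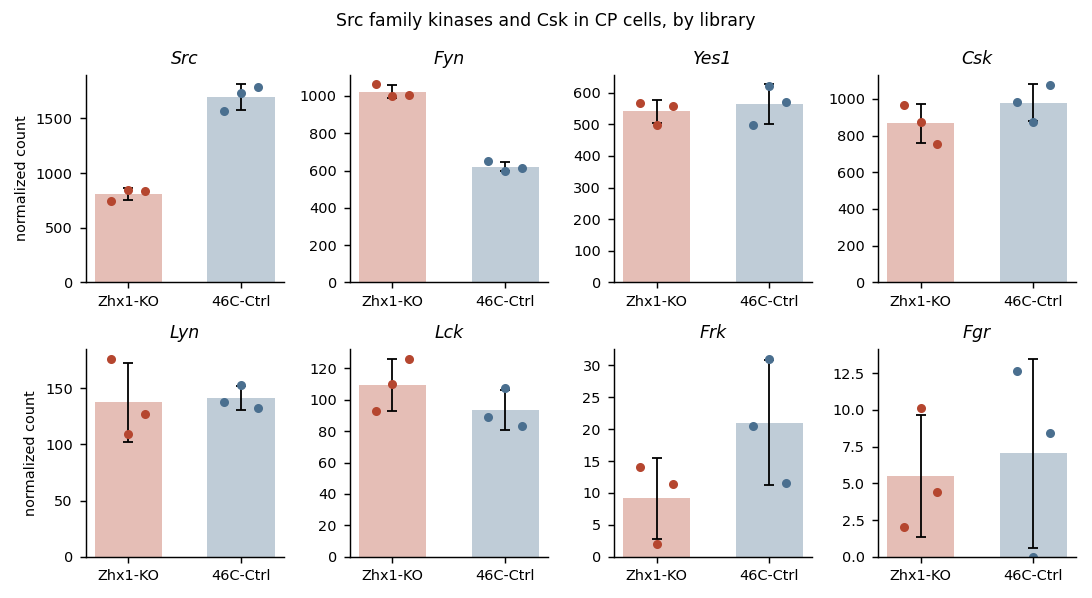
Normalized counts of the 8 members with a row, with Zhx1-KO left and 46C-Ctrl right in each panel. Bars are means, error bars SDs (n = 3) and points single libraries, and each panel has its own axis from 0. Src and Fyn are the panels in which the points of the groups do not overlap.

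Src, the founding member and a kinase of focal adhesions and endosomes, lies on chromosome 2 of GRCm38 from 157418444 to 157471862. It had 741, 840 and 836 normalized counts in the libraries labelled Zhx1-KO, against 1563, 1732 and 1785 in 46C-Ctrl. Every library labelled Zhx1-KO was below every control library, with a gap wider than the spread within either group. The log2 fold change was -1.07 (95% interval -1.25 to -0.89, limma, adjusted p = 2.6e-05), a level 0.476 times that of 46C-Ctrl. A change of this size or larger in either direction was seen in 18.7% of all genes tested. The study names Src as an example gene of this comparison, so it was in part picked for it.

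Fyn, which acts beside Src at adhesions and in the brain carries the Reelin signal, lies on chromosome 10 from 39368855 to 39565381. It had 1061, 998 and 1003 normalized counts in the libraries labelled Zhx1-KO, against 649, 598 and 616 in 46C-Ctrl. The groups did not overlap, and within each the SD was 3.43% and 4.10% of the mean. The log2 fold change was 0.72 (95% interval 0.57 to 0.86, limma, adjusted p = 6.4e-05), a level 1.64 times that of 46C-Ctrl. Changes at least this large were seen in 29.9% of genes tested.

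Yes1, the remaining widely expressed member and a kinase studied in mouse ESC self-renewal, stayed within its spread. It had 566, 498 and 558 normalized counts in the libraries labelled Zhx1-KO and 496, 621 and 572 in 46C-Ctrl. The interval of its change ran from 0.818 to 1.13 times the control level and so stopped short of the changes of Src and Fyn (log2 fold change -0.05, limma, adjusted p = 0.68). Its sign turned with the library left out, to 0.0039 without Zhx1-KO replicate 2 and 0.019 without 46C-Ctrl replicate 2. Exons of Yes1 overlap 635 bases of the predicted gene Gm10461 on the other strand.

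Csk, the kinase that phosphorylates the tail shown above, had 968, 876 and 753 normalized counts in the libraries labelled Zhx1-KO and 982, 875 and 1076 in 46C-Ctrl. Those ranges overlap, and the change did not pass (log2 fold change -0.18, 95% interval -0.44 to 0.08, limma, adjusted p = 0.216). Per kilobase of exon, Csk transcript stood at 1.53, 1.22 and 1.05 times that of Src in the libraries labelled Zhx1-KO, against 0.735, 0.591 and 0.705 times in 46C-Ctrl. The ratio was thus on opposite sides of 1 in the groups, with Csk near its control level and Src below it. Its side of 1 in the libraries labelled Zhx1-KO rests on the exon lengths used. Before division by length, Zhx1-KO replicate 3 had 753 for Csk and 836 for Src.

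**Figure D2:**
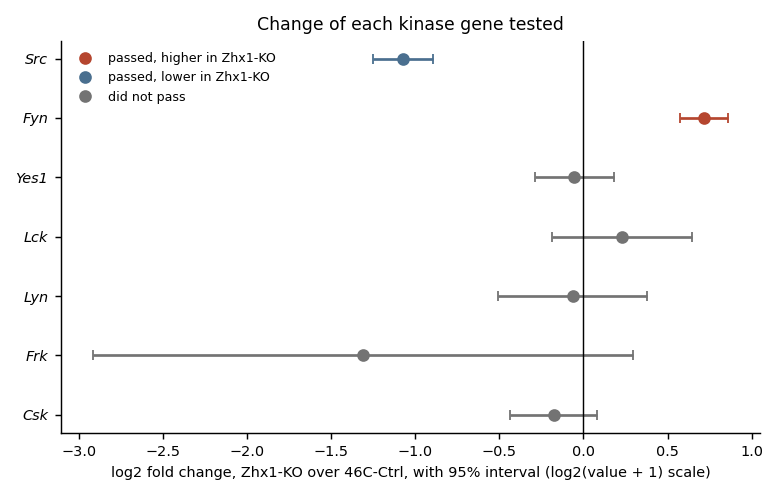
Log2 fold change of Zhx1-KO over 46C-Ctrl for the 7 members tested, on the log2(value + 1) scale, with 95% intervals from limma. Src lies at -1.07 and Fyn at 0.72 with intervals clear of 0, while the intervals of the other genes cross 0.

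Lck, the kinase of T cell receptor signalling, was transcribed at a low level in both groups. It had 92.7, 110 and 126 normalized counts in the libraries labelled Zhx1-KO and 88.7, 108 and 83.3 in 46C-Ctrl. The ranges overlap and the difference did not pass (log2 fold change 0.23, limma, adjusted p = 0.319). The interval of the fold, 0.878 to 1.56, still allows a rise close to that of Fyn.

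Lyn, a kinase of B cells and myeloid cells, was at a similar level. The libraries labelled Zhx1-KO had 176, 109 and 127 normalized counts, and 46C-Ctrl had 138, 153 and 133. The control libraries lie inside the range of the others, and the log2 fold change was -0.07 (95% interval -0.51 to 0.38, limma, adjusted p = 0.798). It was 0.085 without Zhx1-KO replicate 2, so no direction was settled. Lyn is also the member with the largest share of words held by another gene.

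Frk, an epithelial kinase, was at a low level, and it passed the filter only through 46C-Ctrl, with means of 9.19 in the libraries labelled Zhx1-KO and 21.0 in 46C-Ctrl. It had 14.1, 2.02 and 11.4 normalized counts in the libraries labelled Zhx1-KO, against 20.5, 31.1 and 11.6 in 46C-Ctrl. Its log2 fold change was -1.31 with a standard error of 0.69 (limma, adjusted p = 0.15), and -0.58 without Zhx1-KO replicate 2 (limma, adjusted p = 0.38). The ranges overlap, and the interval of the fold runs from 0.132 to 1.23.

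Fgr, a kinase of neutrophils and macrophages, did not reach the filter and was not part of the fit. It had 2.02, 10.1 and 4.4 normalized counts in the libraries labelled Zhx1-KO and 12.7, 0 and 8.44 in 46C-Ctrl. A count of 0 in 46C-Ctrl replicate 2 allows up to 3.11 normalized counts, from 3 reads and for counting error only. The exact permutation p for the means, two-sided, was 0.8 (n = 3 each), unadjusted. No difference was detectable in these libraries.

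Markers of blood cells bear on Lck, Lyn and Fgr. Ptprc, the CD45 phosphatase found on nearly all white blood cells, was at 0 in every library labelled Zhx1-KO and at 0, 2.07 and 0 in 46C-Ctrl. The 14 blood markers summed to 896 to 929 in the libraries labelled Zhx1-KO and 821 to 956 in 46C-Ctrl. Of the 9 tested 5 were higher and 4 lower, where 52.0% of all genes tested were called. Runx1, a regulator of blood formation, had 20.2, 16.2 and 25.5 against 277, 280 and 318 normalized counts in 46C-Ctrl. Coro1a, an actin regulator of blood cells, went the other way, with 226, 203 and 236 against 52.7, 45.6 and 52.7 in 46C-Ctrl.

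Partners of these kinases at lymphoid and myeloid receptors were scarce. Of 18 such genes 16 had a row and 13 of those fell below the filter, and the whole set summed to 85.7 to 170 in the libraries labelled Zhx1-KO and 59.1 to 98.5 in 46C-Ctrl. Lat, the adaptor phosphorylated below the T cell receptor, was the 1 gene of 3 tested that passed. It reached the filter only through the libraries labelled Zhx1-KO, with a mean of 37.6 against 4.40 in 46C-Ctrl, so the count of 1 of 3 says nothing about the list. It had 32.3, 37.4 and 43.1 normalized counts in the libraries labelled Zhx1-KO, against 5.85, 1.04 and 6.33 in 46C-Ctrl (log2 fold change 3.04, limma, adjusted p = 0.00273). Cd247, the zeta chain of that receptor, had 10.1, 32.4 and 73.1 against 22.4, 7.25 and 0. With means of 38.5 against 9.89 in 46C-Ctrl, it too reached the filter only through the libraries labelled Zhx1-KO. Cd247 did not pass (limma, adjusted p = 0.127, and 0.0434 without 46C-Ctrl replicate 1). Itgb2, the beta chain of leukocyte integrins, had 17.1, 23.3 and 21.1 against 46.8, 40.4 and 15.8 (limma, adjusted p = 0.286, and 0.029 without 46C-Ctrl replicate 3).

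Members can be ranked against each other only per length, here as normalized counts per kilobase of annotated exon. In the libraries labelled Zhx1-KO the order began with Fyn at 234 ± 8.03 and Csk at 232 ± 28.7 (mean ± SD, n = 3), whose ranges overlap. Src followed at 184 ± 12.9, Yes1 at 72.0 ± 5.0, Lck at 37.4 ± 5.66 and Lyn at 33.7 ± 8.55, and the ranges of Lck and Lyn overlap. Frk at 1.75 ± 1.21 and Fgr at 1.43 ± 1.08 came last and were not separated.

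In 46C-Ctrl the order began with Src at 387 ± 26.5 normalized counts per kilobase, then Csk at 262 ± 26.9, Fyn at 142 ± 5.84 and Yes1 at 75.0 ± 8.37 (mean ± SD, n = 3). None of these 4 overlapped its neighbour. Lyn at 34.7 ± 2.62 and Lck at 31.8 ± 4.36 overlapped, as did Frk at 4.0 ± 1.85 and Fgr at 1.82 ± 1.67. Within their spread the order of Lck and Lyn, and of Frk and Fgr, was not determined in either group. Src lay above Csk and Fyn in 46C-Ctrl and below both in the libraries labelled Zhx1-KO. Its place below Csk there rests on the exon lengths used.

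Src and Fyn have nearly equal exon lengths, 4371 and 4363 bases, so their counts can be set side by side. The libraries labelled Zhx1-KO had 0.698, 0.842 and 0.833 counts of Src for each count of Fyn, against 2.41, 2.89 and 2.90 in 46C-Ctrl. Among the transcripts of the 7 kinases with a row, leaving out Csk, Src made up 29.9%, 34.7% and 33.4% in the libraries labelled Zhx1-KO, against 55.6%, 56.9% and 59.1% in 46C-Ctrl. Fyn made up 43.0%, 41.2% and 40.1%, against 23.1%, 19.7% and 20.4%.

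Src, Fyn and Yes1 together held 86.8% ± 0.877 of the family in the libraries labelled Zhx1-KO and 89.3% ± 1.08 in 46C-Ctrl (SD, n = 3 each). The summed level per kilobase of the 7 kinases was 565 ± 9.24 in the libraries labelled Zhx1-KO and 677 ± 29.1 in 46C-Ctrl, with no overlap between libraries. The rise of Fyn was smaller in normalized counts than the fall of Src. These sums are a description of transcripts and hold no measure of protein or kinase activity.

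**Figure D3:**
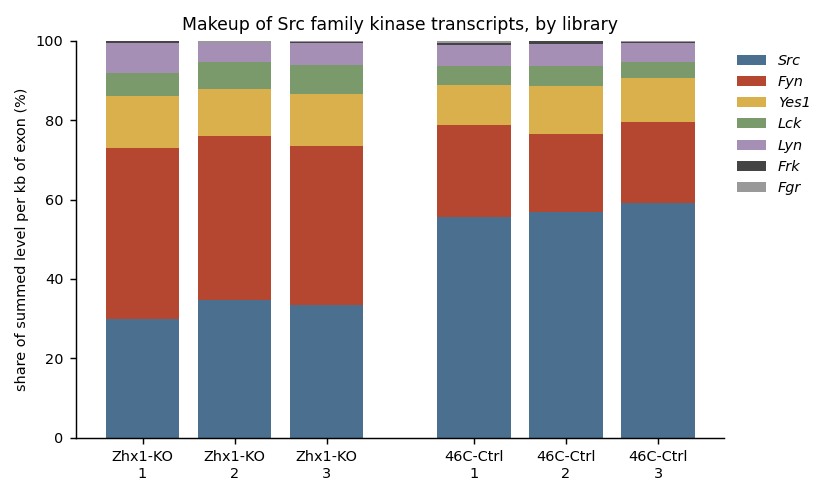
Share of each Src family kinase in their summed level per kilobase of exon, in percent, with 1 bar per library and Zhx1-KO to the left of 46C-Ctrl. Src takes 29.9% to 34.7% of the bar in Zhx1-KO and 55.6% to 59.1% in 46C-Ctrl, and Fyn takes 40.1% to 43.0% and 19.7% to 23.1%.

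The promoters of Src and Fyn are shown because these are the members that changed and because the study examined the Src promoter by ChIP for Zhx1 and hnRNPA1. It reported Zhx1 enriched at the Src promoter, and hnRNPA1 less enriched there once Zhx1 was deleted. Zhx1 is also known as a partner of NF-Y, which binds CCAAT boxes. Each sequence runs from 250 bases before to 50 bases after the RefSeq start site on GRCm38.p6, with matches in capitals to CCAAT, to TAGGG (a motif hnRNPA1 binds) and to GGGCGG (a GC box), searched on both strands.
Src, chr2:157424043-157424342, plus strand: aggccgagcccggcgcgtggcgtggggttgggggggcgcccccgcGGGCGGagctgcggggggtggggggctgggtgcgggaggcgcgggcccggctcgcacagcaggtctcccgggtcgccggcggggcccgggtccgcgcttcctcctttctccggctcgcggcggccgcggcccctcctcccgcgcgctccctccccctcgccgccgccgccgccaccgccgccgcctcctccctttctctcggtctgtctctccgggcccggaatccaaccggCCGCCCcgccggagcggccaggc
Fyn, chr10:39369549-39369848, plus strand: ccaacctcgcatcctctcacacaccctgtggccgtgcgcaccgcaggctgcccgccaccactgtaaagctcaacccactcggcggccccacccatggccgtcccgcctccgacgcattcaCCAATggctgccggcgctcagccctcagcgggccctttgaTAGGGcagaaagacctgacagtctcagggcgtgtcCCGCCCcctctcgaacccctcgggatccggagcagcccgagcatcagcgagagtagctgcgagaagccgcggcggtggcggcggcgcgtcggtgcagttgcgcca
The Src window is 82.3% G and C and that of Fyn 69.0%, beside a median of 52.7% over all promoters of this length. Src holds 0 matches to CCAAT, 0 to TAGGG and 2 to GGGCGG, and Fyn holds 1 of each. Of 32851 mouse promoters, 37.4% hold CCAAT, 36.3% hold TAGGG and 35.7% hold GGGCGG. A match here is a description and not a binding site, and the lack of a match is not a lack of binding. The start site that RefSeq gives for Src lies 5849 bases inside the gene as GENCODE draws it, and that for Fyn 944 bases inside. Other promoters of Src and Fyn are therefore not covered by these windows.

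Regulators of Src family kinases were tested for 23 of 24 listed genes. Of these, 6 were higher, 10 lower and 7 did not pass, where 52.0% of all genes tested were called. The median log2 fold change was -0.23 beside 0.01 over all genes. Afap1, an actin-binding partner that Src activates and is activated by, had 655, 622 and 526 normalized counts in the libraries labelled Zhx1-KO, against 1343, 1203 and 1181 in 46C-Ctrl (log2 fold change -1.05, limma, adjusted p = 8.0e-05). Pag1, a membrane anchor that recruits Csk, was singled out after its values were seen. It had 148, 138 and 125 against 287, 237 and 313 (log2 fold change -1.02, limma, adjusted p = 0.000604). Lime1, from the same list, had 219, 265 and 250 against 291, 212 and 273 and did not pass (log2 fold change -0.07, limma, adjusted p = 0.702).

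Among the regulators that rose, 3 of 6 lie on chromosome 11. Arrb2, a beta-arrestin that brings Src to receptors, had 585, 602 and 574 normalized counts in the libraries labelled Zhx1-KO, against 327, 312 and 307 in 46C-Ctrl (log2 fold change 0.90, limma, adjusted p = 4.1e-05). Unc119, which carries myristoylated Src family kinases through the cytosol, had 711, 799 and 782 against 474, 457 and 449 (log2 fold change 0.73, limma, adjusted p = 0.00012). Nmt1, an enzyme that attaches their myristate, had 3342, 3624 and 3535 against 2466, 2437 and 2633 (log2 fold change 0.48, limma, adjusted p = 0.00023). Nmt2, from the same list but on chromosome 2, was lower, with 1129, 1170 and 1237.5 against 1339, 1426 and 1323 (log2 fold change -0.21, limma, adjusted p = 0.0204). On chromosome 11, 675 of 1187 genes tested were higher and 114 lower, with a median log2 fold change of 0.42 against -0.02 elsewhere, and no member lies there. Without its genes on that chromosome the list had 3 higher and 10 lower of 20, an alternative chosen after seeing the data.

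Substrates and adaptors of these kinases were tested for all 26 listed genes. Of these, 6 were higher, 11 lower and 9 did not pass, where 52.0% of all genes tested were called. Cttn, the cortical actin protein that Src phosphorylates, had 1956, 1762 and 1656 normalized counts in the libraries labelled Zhx1-KO, against 2862, 2784 and 2780 in 46C-Ctrl (log2 fold change -0.65, limma, adjusted p = 0.00014). Arhgap35, a GTPase-activating protein and Src substrate, had 2973, 2896 and 2840 against 4047, 4036 and 4109 (log2 fold change -0.49, limma, adjusted p = 6.5e-05). Efs, a scaffold of the Cas family that binds the SH3 domains of Src and Fyn, had 608, 639 and 599 against 941, 921 and 886 (log2 fold change -0.57, limma, adjusted p = 0.000178). These 3 are named for having some of the smallest adjusted p of the list, so a gap between the groups follows from that choice. Such a gap was seen for 60.8% of all genes tested.

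Stat3, a transcription factor that Src can phosphorylate, lies on chromosome 11 and was higher. It had 903, 923 and 907 normalized counts in the libraries labelled Zhx1-KO, against 628, 588 and 622 in 46C-Ctrl (log2 fold change 0.57, limma, adjusted p = 0.00015). Dab1, the Reelin adaptor that Fyn phosphorylates, was singled out after its values were seen. Its counts were 623, 549 and 553 against 381, 357 and 346 (log2 fold change 0.67, limma, adjusted p = 0.000405). Of the Reelin receptors in the receptor list, Lrp8 fell, with 188, 162 and 185 against 366, 299 and 340 (log2 fold change -0.90, limma, adjusted p = 0.000467). Vldlr had 500, 449 and 488 against 487, 488 and 449 and did not pass (log2 fold change 0.01, limma, adjusted p = 0.906). The median over the list was -0.10, and without its 5 genes on chromosome 11 the calls were 4 higher and 11 lower of 21.

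Receptors that signal through Src family kinases were tested for 25 of 26 listed genes. Of these, 7 were higher, 11 lower and 7 did not pass, where 52.0% of all genes tested were called. Flt1, a VEGF receptor, had 416, 425 and 393 normalized counts in the libraries labelled Zhx1-KO, against 2144, 1964 and 2046 in 46C-Ctrl (log2 fold change -2.32, limma, adjusted p = 3.5e-07). Kdr, the main signalling VEGF receptor and also an endothelial marker, went the other way with 2189, 2084 and 1965 against 651, 610 and 631 (log2 fold change 1.72, limma, adjusted p = 1.1e-06). Those paired VEGF receptors thus moved in opposite directions.

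Epha2, an ephrin receptor of epithelia, had 255, 312 and 312 normalized counts in the libraries labelled Zhx1-KO, against 1250, 1138 and 1250 in 46C-Ctrl (log2 fold change -2.05, limma, adjusted p = 3.6e-06). Fgfr2 had 513, 517 and 591 against 143, 176 and 163 (log2 fold change 1.74, limma, adjusted p = 1.4e-05). The median log2 fold change over the receptors was -0.0048, beside 0.01 over all genes, with genes passing in both directions.

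**Figure D4:**
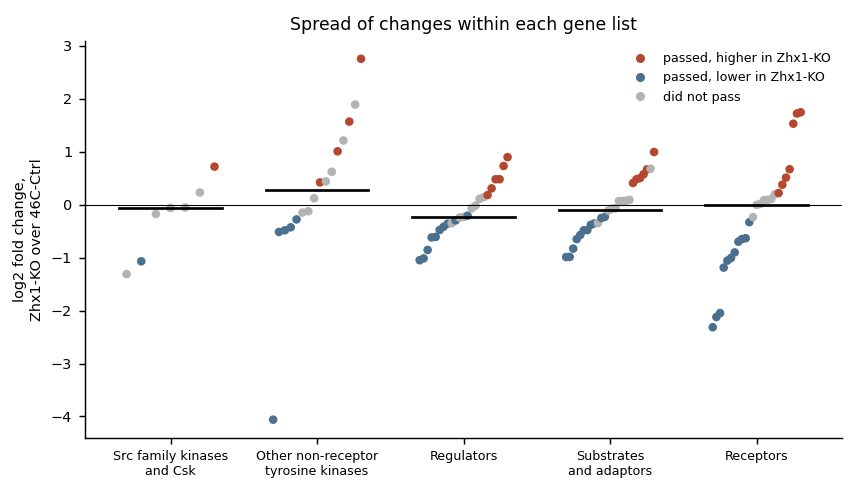
Log2 fold change of Zhx1-KO over 46C-Ctrl for each gene tested, by list, with the list's median as a black line. The members run from -1.31 for Frk to 0.72 for Fyn, and the receptors from -2.32 for Flt1 to 1.74 for Fgfr2.

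Other non-receptor tyrosine kinases were tested for 16 of 23 listed genes. Of these, 4 were higher, 5 lower and 7 did not pass, where 52.0% of all genes tested were called. These counts moved with single libraries, to 1 higher without Zhx1-KO replicate 2, to 2 higher and 3 lower without 46C-Ctrl replicate 3, and to 3 lower without Zhx1-KO replicate 1 or 46C-Ctrl replicate 1. Matk was called higher with means of 38.8 in the libraries labelled Zhx1-KO and 9.03 in 46C-Ctrl, and Tec lower with 9.09 and 53.2. Both reached the filter only through their higher group, so their calls say little about the list. Abl2, a kinase of actin remodelling, had 1136, 1196 and 1207 normalized counts in the libraries labelled Zhx1-KO, against 1569, 1612 and 1584 in 46C-Ctrl (log2 fold change -0.43, limma, adjusted p = 0.000307). Jak1, a cytokine receptor kinase, had 1086, 1114 and 1175 against 1440, 1296 and 1366 (log2 fold change -0.28, limma, adjusted p = 0.00663). Jak2, another of that family, had 364, 348 and 386 against 504, 592 and 450 (log2 fold change -0.49, limma, adjusted p = 0.00778).

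Syk, the kinase that acts after Lyn at B cell and Fc receptors, was among those that rose. It had 105, 212 and 174 normalized counts in the libraries labelled Zhx1-KO, against 64.4, 70.4 and 31.6 in 46C-Ctrl (log2 fold change 1.57, limma, adjusted p = 0.00841). Its groups did not overlap, although its level varied more between libraries of 1 group than that of Src or Fyn.

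**Figure D5:**
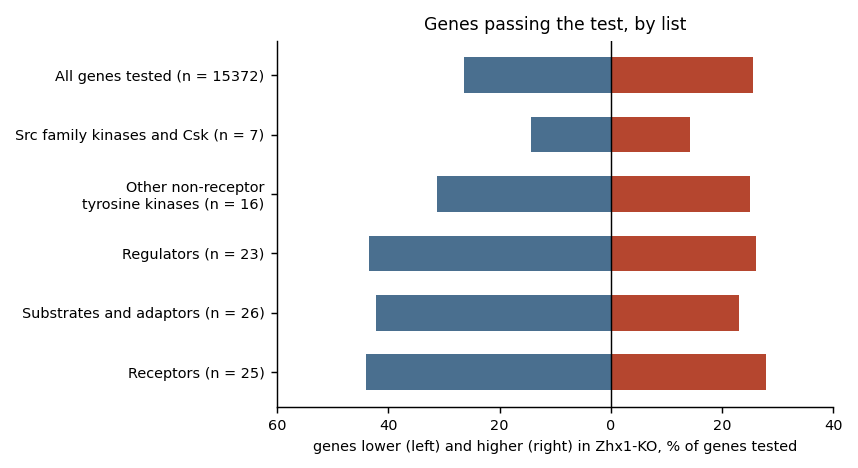
Share of the genes tested in each list that passed as lower (left of 0) and higher (right of 0) in Zhx1-KO, in percent, with the number tested beside each name. The 7 members passed in 28.6% of cases, below the 52.0% of all genes tested, and the other lists drawn lie above it. The lymphoid and myeloid receptor genes, with 1 of 3 tested called (33.3%), are not drawn. Among the other tyrosine kinases, Matk and Tec were called but reached the filter through 1 group only.

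Genes with the pattern most like that of Src and Fyn were sought among 10803 others with a mean of at least 100, by the distance between centred log2 values over the 6 libraries. For Src these were Acsl3 (a fatty acyl-CoA synthetase, at a distance of 0.0835), Klhl9, Zfp275, Efemp2 (an elastic fibre protein) and Ppp1r21 (at 0.149). Acsl3 had 1286, 1450 and 1511 normalized counts in the libraries labelled Zhx1-KO, against 2821, 3157 and 3272 in 46C-Ctrl. For Fyn they were Agfg1 (at 0.068), Pip4k2b (a lipid kinase), Zfp41, Thoc5 (an mRNA export factor) and Zfp652 (at 0.111). Agfg1 had 1307, 1239 and 1239 against 841, 766 and 767. Of the genes nearest to Fyn, Pip4k2b, Thoc5 and Zfp652 lie on chromosome 11, while Fyn lies on chromosome 10. No kinase of the lists was among these genes, and the measure says only that the values ran alike.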

How the data were processed

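Per the paper's methods and the submitters' processing notes, reads were trimmed (cutadapt 1.18), aligned strand-specifically to GRCm38 (HISAT2 2.1.0) and summarised as FPKM (StringTie 1.3.4d), with Cufflinks and DESeq2 also named. The deposited values are a signal per gene, in which the authors scaled whole counts by a single factor for each library. No source at hand names the program that counted reads. All values are whole multiples of a step per library (0.880 to 1.05, within 0.01), and recovered reads are the values divided by that step. The steps of Zhx1-KO replicates 1 and 2 (1.01 each) lie near 1. There whole multiples are told from whole numbers mainly at higher counts, such as 740.748 for Src in replicate 1, read as 735.

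The main test used log2(value + 1) of the 15372 genes averaging at least 10 and limma's trended fit (limma 3.58.1, R 4.3.3), two-sided, with Benjamini-Hochberg adjustment over all of them. Fold changes are on that scale and understate the change of low genes. Exact permutation tests (scipy 1.17.1) compared group means. The design had edgeR for raw counts only. EdgeR 4.0.16 (quasi-likelihood) and DESeq2 1.42.0 on recovered reads were added after seeing the data. The scripts were tested on simulated data. Other alternatives covered the pseudocount, filter, scaling, mean trend, a 2-fold threshold, the replicate number as a block and each library left out. Exon lengths and positions are from GENCODE M21 and promoters from RefSeq.

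Members and the 11 gene lists were chosen with earlier results of these data known. Named genes are the members, Zhx1, up to 4 tested genes per list with the smallest adjusted p, and the 5 genes nearest in pattern to Src and to Fyn. Pag1, Lime1, Nmt2, Dab1, Lrp8, Vldlr, Ptprc, Matk and Tec lie outside this rule and were named after their values were seen. Of the marker lists only a few are named. A gene that the rule also covers is not reported here.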

Additional observations from a re-analysis of the deposited data

How the results depend on the processing

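Src was lower in all 17 alternatives (log2 fold change -1.13 to -0.97) and Fyn higher in all of them (0.69 to 0.81), Fyn falling short of the call only where a 2-fold change was also asked for. Yes1, Lck, Lyn, Frk and Csk passed in none. Among values that were not called, Yes1 turned to 0.0039 and 0.019 without Zhx1-KO replicate 2 and without 46C-Ctrl replicate 2, and Lyn to 0.085 without Zhx1-KO replicate 2. With a library left out, Yes1 ran from -0.14 to 0.019, Lyn from -0.26 to 0.085, Frk from -1.74 to -0.58 and Zhx1 from -0.70 to -0.028.

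With the 2-fold condition, 1493 genes were higher and 1207 lower, and the counts of higher genes fell to 0 members, 0 regulators, 0 substrates and 3 receptors. Lower genes under it were 1 other tyrosine kinase, 2 regulators, 0 substrates and 6 receptors. Other tyrosine kinases were the least settled list, with 2 higher at a mean of at least 1, with no filter, with quantile normalization and with a TMM-like rescaling, 1 higher and 3 lower without the mean trend, and 3 lower with edgeR on recovered reads. With a library left out they ran from 1 to 4 higher and 3 to 6 lower. The receptor genes of lymphoid and myeloid cells had 2 higher at a mean of at least 1 and with no filter, and 1 to 2 higher and 0 to 1 lower with a library left out. Without chromosome 11, regulators had 3 higher.

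With the replicate number as a block, 3625 genes were higher and 3749 lower, and Src had a log2 fold change of -1.07 (limma, adjusted p = 0.000139) and Fyn 0.72 (0.000654). Deviations of same-numbered libraries correlated at 0.0042, -0.069 and 0.00059, so the numbers were not taken to pair them. No scaling moved the median of all genes by more than 0.02. Frk had 2 to 30 recovered reads per library and Fgr 0 to 13, with SDs of 46.3% to 91.7% of the group mean.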
